A study of Mus musculus with 33 samples.

Results

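Blastocysts cloned by nuclear transfer from the nuclei of adult neurons were compared between 2 donor cell types, the cerebellar Purkinje cell and the pyramidal cell of hippocampal area CA1. The comparison used every XY clone of either donor type, which gave 4 Purkinje clones and 4 CA1 clones, 8 of the 33 samples of the series. All donors were adult (C57BL/6NxDBA/2)F1 mice, and all reconstructed oocytes received 50 nM trichostatin A, an inhibitor of histone deacetylases. The drug was present for the 1 h of activation, for the 5 h in which cytochalasin B followed and for a last 2 h without it. All embryos were grown in KSOM for 96 h and taken as single blastocysts. Of the other samples, 4 XX Purkinje clones and 4 XX CA1 clones with the same treatment were used for the same contrast in the other sex, and 4 XY clones of Sertoli cells entered the fit that estimates the spread between arrays. The labels leave the number of donor mice and of nuclear transfer sessions unstated, so each p-value refers to the variation among these single blastocysts.

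In nuclear transfer the nucleus of a differentiated cell is placed into an oocyte without its own chromosomes, and the oocyte's factors bring it back to an early embryonic state. Purkinje cells are the inhibitory output neurons of the cerebellar cortex and CA1 pyramidal cells are excitatory neurons, and both have left the cell cycle for good. A blastocyst consists of trophectoderm, which forms placenta, and an inner cell mass, which forms the embryo and the primitive endoderm. At this stage the donor's own genes for neuronal function are normally silent, and errors of cloned mouse embryos are known at imprinted genes, on the X chromosome and at genes marked by histone methylation.

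The RNA of each blastocyst was amplified in 2 rounds, labelled with Cy3 and hybridised to a single-colour Agilent mouse array. Levels below are log2 values of the processed signal over the array's own 75th percentile, so 0 is a probe at that percentile and a difference of 1 is 2-fold. Values under 0.09286 of the 75th percentile, which is -3.43 on the log2 scale, were set to that floor on all arrays. A difference was called at an adjusted p under 0.05, by limma, with p-values adjusted by the Benjamini-Hochberg method across all 14690 genes, and each difference is Purkinje minus CA1.

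The Purkinje arrays were dimmer than the CA1 arrays. The 75th percentile of the processed signal was 659, 603, 368 and 229.7 on the Purkinje arrays of replicates 1 to 4, against 1099, 930, 1236 and 1155 on the CA1 arrays. The log2 difference was -1.36 and the groups did not overlap (exact two-sided permutation test, p = 0.0286, the smallest that 70 splits of 4 against 4 allow). Purkinje arrays had 48.9 to 55.8% of probes well above background, against 58.6 to 62.5% on CA1 arrays, and the median background was 35.5 to 41 on Purkinje arrays against 25 to 26.5 on CA1 arrays. Replicates of a group correlated at 0.957 to 0.982 for Purkinje clones and 0.964 to 0.978 for CA1 clones across genes. Each group lay on 1 slide of its own, and both groups of Purkinje clones were scanned apart from both groups of CA1 clones, so donor type, slide and scan cannot be told apart in any value below.

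Y-linked transcripts were present on all 8 arrays, as the XY labels require. Ddx3y, an RNA helicase gene of the Y chromosome, had levels of 2.63, 3.04, 2.58 and 2.18 in Purkinje clones, against 2.50, 1.27, 3.83 and 3.42 in CA1 clones. These ranges overlapped and the -0.15 difference missed the threshold (adjusted p = 0.827). A second Ddx3y probe gave a difference of 2.30, so the probes of this gene disagree. Kdm5d, a histone demethylase gene, differed by 0.06. Eif2s3y, a translation initiation factor gene, passed the test at 1.14 with overlapping groups (adjusted p = 0.0445), and 6 of the 8 single-array omissions ended that call: without Purkinje replicates 2, 3 or 4, or CA1 replicates 1, 3 or 4, the adjusted p was 0.067 to 0.127. Uty, a Y-linked relative of the H3K27 demethylase Kdm6a, had -3.43, -1.09, -1.93 and -0.70 in Purkinje clones, against -3.43, -3.39, -3.43 and -3.43 in CA1 clones, a difference of 1.63 (adjusted p = 0.00616). Replicate 1 of the Purkinje clones lay on the floor beside 3 of the CA1 clones.

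Of 14690 genes, 3023 were called, 20.6% of all tested. The 1807 higher in Purkinje clones were 12.3% of the genes tested and the 1216 lower were 8.28%, so 59.8% of the calls were higher. That split depended on the scaling: the higher share was 61.7% in the authors' own value table, but 48.9% after scaling to the array median, 47.7% after quantile normalization, 45.2% after cyclic loess and 47.4% after normexp background correction. With cyclic loess, 1340 genes (9.12%) were higher and 1625 (11.1%) lower. The 4 Purkinje and the 4 CA1 arrays did not overlap in 3321 genes (22.6%), 1908 with Purkinje clones higher (13.0%) and 1413 with them lower (9.62%). Scaling to the array median moved the median difference of all genes to -0.11, against 0.03 with the 75th percentile.

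The excess of higher calls lay among genes with high signal. Among the genes with the highest mean level, when all were split into 5 equal groups, 734 were higher and 191 lower in Purkinje clones, and the median difference was 0.24. In the next to lowest group, 224 were higher and 285 lower, with a median of -0.13. After cyclic loess the top group held 374 higher and 478 lower genes and its median was -0.03. A direction given below for a gene of high signal is therefore stated with its value under the other scalings where that turns.

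**Figure D1:**
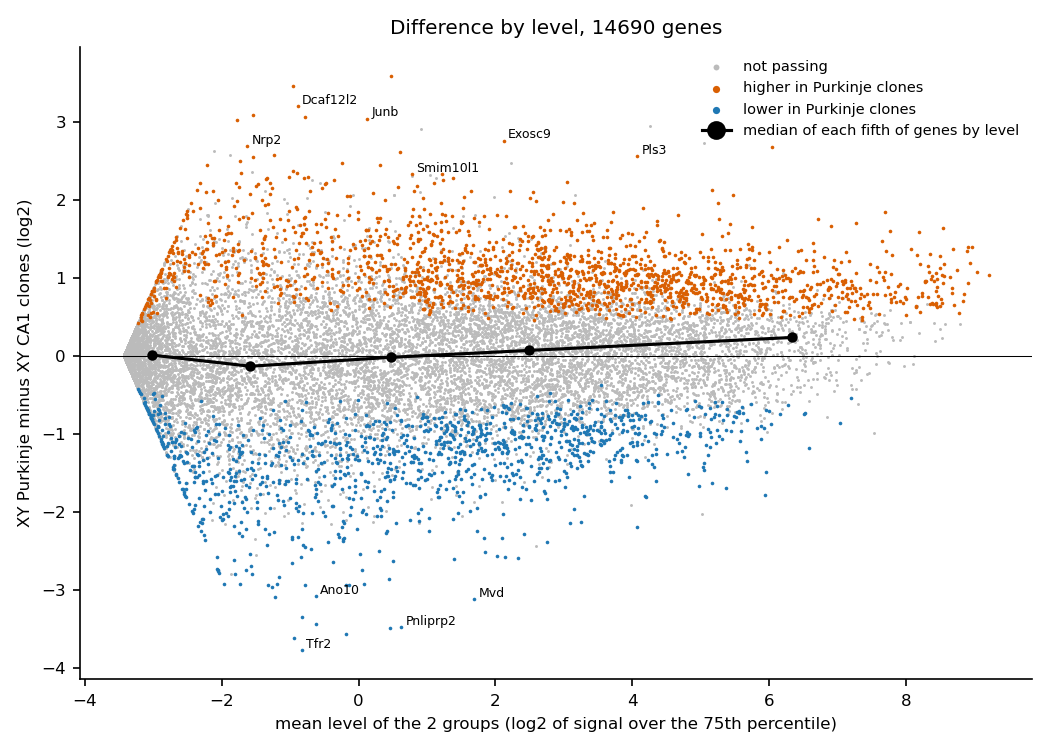
The difference between XY Purkinje and XY CA1 clones (log2, vertical axis) against the mean level of the 2 groups (log2 of signal over the 75th percentile, horizontal axis), 1 point per gene, with genes higher in Purkinje clones in orange, lower in blue and genes not passing in grey. The black line joins the medians of 5 equal groups of genes by level and lies at -0.13 in the next to lowest and 0.24 in the highest.

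Purkinje replicates 3 and 4 were the dimmest arrays. Of the 1807 genes called higher, both of these arrays stood above both brighter Purkinje arrays in 1175 and below both in 60. The median difference of these genes from CA1 clones was 1.26 in the dim arrays and 0.76 in the brighter arrays. Among the 1216 genes called lower, the dim arrays were the 2 lowest in 497 and the 2 highest in 119, with medians of -1.35 in the dim arrays and -0.99 in the brighter arrays. Since the same 8 arrays chose these genes, that is a description. Without Purkinje replicates 3 and 4, 472 genes were called, 260 higher and 212 lower. Leaving out 1 of them gave 1731 without replicate 3 and 1716 without replicate 4, and 1797 were called without CA1 replicate 4.

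Junb, which encodes a subunit of the transcription factor AP-1, was among the genes with the largest rise. Its levels were 0.50, 1.46, 2.21 and 2.42 in Purkinje clones, against -1.60, -1.89, -0.93 and -1.17 in CA1 clones. Every Purkinje clone lay above every CA1 clone, and the difference was 3.04 (SE 0.37, adjusted p = 5.86e-05). A second Junb probe gave 1.64. Fgl1, a fibrinogen-like secreted protein, had -1.44, 0.37, 1.91 and 2.19 in Purkinje clones, against -1.96, -1.88, -2.12 and -3.28 in CA1 clones, a difference of 3.07 (SE 0.73). Its highest values were those of the 2 dim arrays, as were those of Dcaf12l2 on the X chromosome, which differed by 3.20.

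Further rises were measured for genes of the cell surface, the cytoskeleton and RNA control. Nrp2, a receptor for semaphorins and VEGF, had -0.07, 0.60, -0.55 and -1.11 in Purkinje clones, against -2.62, -3.43, -3.06 and -2.77 in CA1 clones (difference 2.69, adjusted p = 0.0157). Pls3, an X-linked gene for an actin-bundling plastin, had 4.85, 5.69, 5.28 and 5.59 in Purkinje clones, against 3.34, 0.91, 4.09 and 2.81 in CA1 clones, a difference of 2.56. Its CA1 values were the more scattered, with replicate 2 lowest. Cpeb4, which binds the ends of messenger RNAs and regulates their poly(A) tails, had -1.06, -0.16, -1.05 and 0.11 in Purkinje clones, against -2.62, -2.99, -2.89 and -3.03 in CA1 clones (difference 2.34, adjusted p = 0.000627). The groups did not overlap in Nrp2, Pls3 or Cpeb4. A second Cpeb4 probe gave 0.67.

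The microtubule kinase gene Mark1 (2.54) and the X-linked genes Wdr44 (2.50) and Zfp280c (2.47) rose as well. Smim10l1 rose by 2.33 over the 3 CA1 arrays that measured it. Exosc9, a subunit of the RNA-degrading exosome, had 2.80, 2.83, 4.24 and 4.13 in Purkinje clones, against -3.43, 2.50, 2.12 and 1.76 in CA1 clones. CA1 replicate 1 was on the floor, and the call was lost without Purkinje replicate 3 (adjusted p = 0.104) or 4 (0.102). Itgb3, an integrin beta chain, was on the floor in all CA1 clones and at least 5.45-fold higher in Purkinje clones on its brightest probe. The call was lost without Purkinje replicate 3 or 4 or CA1 replicate 4. A second Itgb3 probe, well above background on 3 Purkinje and 2 CA1 arrays, gave -0.03.

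The largest fall was that of Tfr2, a transferrin receptor that senses iron in liver. It had -2.03, -3.37, -3.43 and -2.02 in Purkinje clones, against 0.81, 1.02, 0.46 and 1.96 in CA1 clones, a difference of -3.78 (SE 0.46, adjusted p = 6.15e-05). Padi3, an enzyme that turns arginine into citrulline, had -3.43, -3.00, -1.94 and -2.63 in Purkinje clones, against 0.46, 0.78, 0.51 and 1.74 in CA1 clones (difference -3.62). Ifi27, an interferon-inducible gene, had -2.35, -3.21, -0.19 and -2.13 in Purkinje clones, against 0.66, 1.87, 1.39 and 2.48 in CA1 clones (difference -3.57). All 3 genes lay under the 75th percentile in every Purkinje clone and above it in every CA1 clone.

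Further falls were measured for membrane and secreted proteins and for enzymes. Pnliprp2, a relative of pancreatic lipase, had -0.65, -3.43, 0.42 and -0.80 in Purkinje clones, against 2.52, 2.86, 2.39 and 1.68 in CA1 clones, a difference of -3.48. Hpn, the membrane protease hepsin, had -0.66, -3.43, -2.95 and -2.30 in Purkinje clones, against 1.54, 1.16, 0.65 and 1.06 in CA1 clones, a difference of -3.44. Cpsf4l fell by 3.50 and Ano10, a member of the anoctamin family, by 3.08. Khk, which phosphorylates fructose, fell by 2.94, and so did Vwf, the von Willebrand factor, whose call was lost without Purkinje replicate 4 (adjusted p = 0.052). Afap1, an actin filament-associated protein, fell by 3.35 on its brightest probe while a second probe gave 0.23.

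Rims1, a scaffold of the presynaptic active zone where neurons release transmitter, was lower too. Its levels were -3.43, -2.86, -2.10 and -2.61 in Purkinje clones, against 0.43, -1.54, 0.97 and 1.00 in CA1 clones, and it differed by -2.96 (adjusted p = 0.000623). The groups did not overlap, and CA1 replicate 2 lay below the other CA1 clones. Of these 24 genes, Junb, Cpeb4, Smim10l1, Tfr2, Padi3, Ifi27, Cpsf4l, Pnliprp2, Afap1, Mvd, Ano10 and Rims1 still passed without the 2 dim Purkinje arrays and the other 12 did not.

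**Figure D2:**
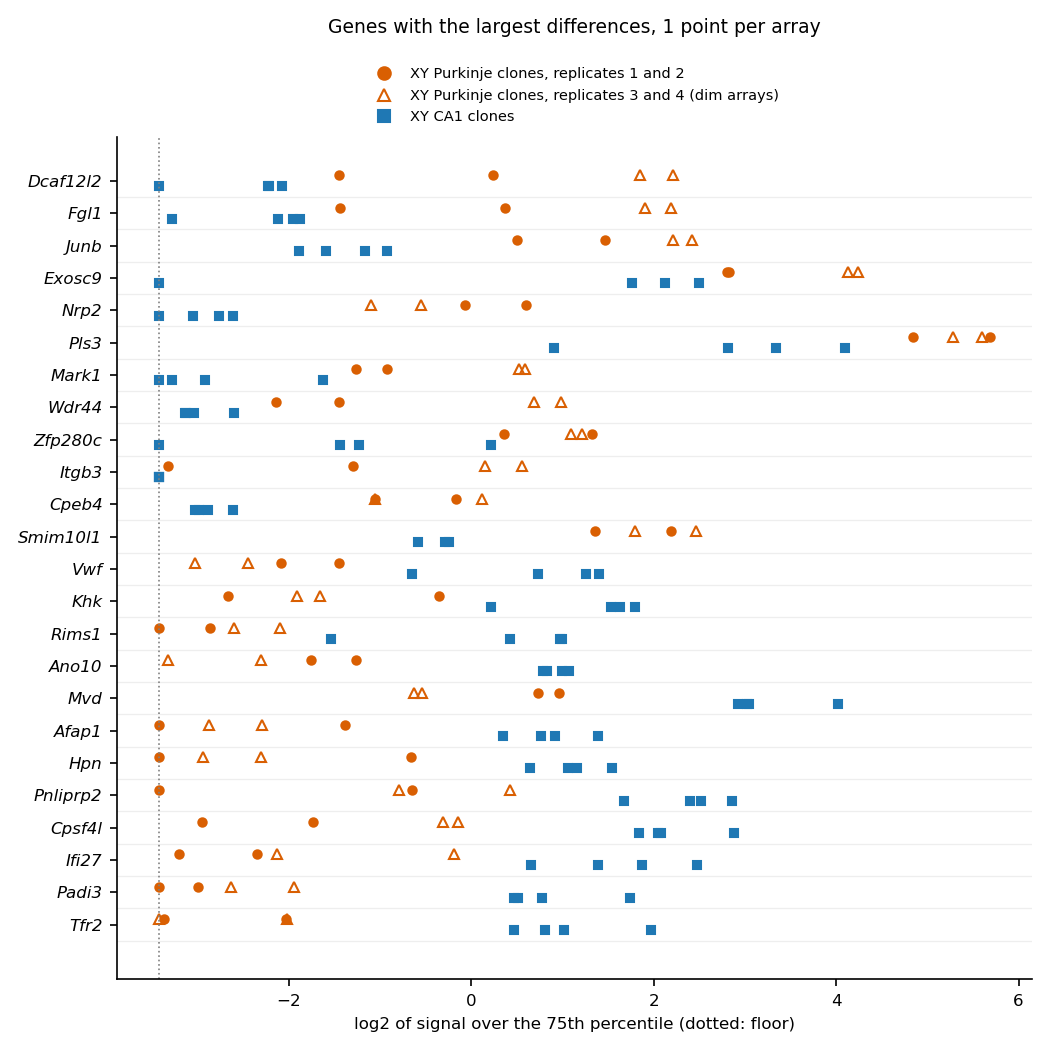
Levels (log2 of signal over the 75th percentile, horizontal axis) of the 12 genes with the largest rises and the 12 with the largest falls, 1 point per array, with Purkinje arrays above CA1 arrays in each row. Open triangles are the dim Purkinje replicates 3 and 4, and the dotted line is the floor at -3.43, where Tfr2 and Padi3 each have a Purkinje clone and Itgb3 has its CA1 clones.

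Part of the markers of the donor neurons were at background. Of 21 Purkinje cell genes on the array, 9 could be tested, 5 were well above background on all 4 Purkinje arrays and 8 on all 4 CA1 arrays, and the calcium-binding proteins Calb1 and Pvalb and the phosphatase inhibitor Ppp1r17 were on no array well above background. Pcp2, a gene used as a signature of Purkinje cells, had -0.62, -0.56, -0.81 and -0.56 in Purkinje clones, against -0.69, -0.87, -0.77 and -0.23 in CA1 clones, and the groups overlapped with a difference of 0.00. The summed level of the whole list (log2 of the summed ratios) was 2.6 to 2.95 in Purkinje clones against 2.06 to 2.62 in CA1 clones. Of the 9 genes tested, 0 were higher and 1 lower, against 12.3% higher and 8.28% lower among all genes. Homer3, a postsynaptic scaffold of Purkinje cells, was the 1 gene called and was lower in Purkinje clones: it had -1.69, -2.15, -1.97 and -1.73 there, against -0.89, -0.98, -1.02 and -0.84 in CA1 clones (difference -0.95, adjusted p = 0.00125).

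Of 20 CA1 genes on the array, 6 could be tested and 9 were never well above background, among them Neurod6, Slc17a7 and Fibcd1, which mark pyramidal neurons. Of the 6 tested, 1 was higher in Purkinje clones and 0 lower, against 12.3% and 8.28% of all genes. The summed level of the list was 4.19 to 4.43 in Purkinje clones against 3.95 to 5.29 in CA1 clones, so these overlapped.

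Among 24 genes shared by most neurons, 14 were tested, with 1 higher and 1 lower, against 12.3% and 8.28% of all genes. Snap25, Gap43, Elavl4, Celf4 and Vsnl1 were never well above background. Elavl3, a neuronal RNA-binding protein, was on the floor in all 4 Purkinje clones, against -1.57, -2.14, -2.59 and -1.69 in CA1 clones, which made it at least 2.70-fold lower in Purkinje clones. Rtn1, a reticulon of the endoplasmic reticulum, rose by 2.07, but lost its call without any of 5 arrays (adjusted p up to 0.109). Of 12 glial genes, 6 were tested and none was called at an adjusted p under 0.05. In these single embryos, fewer cells of a type and less RNA per cell cannot be told apart, which holds for all lineage genes below.

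Every gene of cholesterol synthesis that was called was lower in Purkinje clones. The pathway builds cholesterol from acetyl-CoA through mevalonate, farnesyl diphosphate and squalene, and its genes are activated together by the factor SREBP2 when sterols are scarce, often with help from NF-Y, which binds CCAAT boxes. Of 24 genes tested, 0 were higher and 10 lower, against 12.3% higher and 8.28% lower among all genes, and the median difference was -0.92 against 0.03 for all genes. Over the 5 other scalings the median was -1.06 to -0.92 and 10 to 14 genes were lower. Leaving out single arrays gave 5 to 11 lower genes, with 6 without Purkinje replicate 3 and 5 without Purkinje replicate 4, and without both dim Purkinje arrays the median was -0.76 with 1 gene called.

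The proximal promoters of the 4 lower genes with the largest differences among those that had a promoter sequence are shown because they share a CCAAT box, together with Dhcr7, which did not pass the test and has none. Each is the 250 bases before the annotated start (RefSeq, GRCm38.p6), 5′ to 3′ on the strand of the gene, with CCAAT or its reverse complement ATTGG in capitals. The positions are chr8:122443423-122443672 (minus strand) for Mvd, chr19:6067851-6068100 (minus) for Tm7sf2, chr9:42264301-42264550 (minus) for Sc5d, chr5:114444019-114444268 (plus) for Mvk and chr7:143822917-143823166 (plus) for Dhcr7.
Mvd: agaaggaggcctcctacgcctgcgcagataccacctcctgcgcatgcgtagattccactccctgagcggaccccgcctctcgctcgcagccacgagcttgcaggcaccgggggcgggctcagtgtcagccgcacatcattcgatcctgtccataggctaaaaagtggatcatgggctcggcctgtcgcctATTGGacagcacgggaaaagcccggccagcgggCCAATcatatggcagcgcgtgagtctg
Tm7sf2: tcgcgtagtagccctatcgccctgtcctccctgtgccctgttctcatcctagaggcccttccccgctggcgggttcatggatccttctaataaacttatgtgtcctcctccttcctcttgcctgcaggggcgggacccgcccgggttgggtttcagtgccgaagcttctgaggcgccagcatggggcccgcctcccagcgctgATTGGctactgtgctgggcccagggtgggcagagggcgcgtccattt
Sc5d: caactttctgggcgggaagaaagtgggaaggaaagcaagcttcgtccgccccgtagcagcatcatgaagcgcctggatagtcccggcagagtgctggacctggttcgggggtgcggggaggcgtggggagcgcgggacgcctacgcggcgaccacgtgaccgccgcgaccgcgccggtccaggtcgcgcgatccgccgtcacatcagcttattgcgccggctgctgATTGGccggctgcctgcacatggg
Mvk: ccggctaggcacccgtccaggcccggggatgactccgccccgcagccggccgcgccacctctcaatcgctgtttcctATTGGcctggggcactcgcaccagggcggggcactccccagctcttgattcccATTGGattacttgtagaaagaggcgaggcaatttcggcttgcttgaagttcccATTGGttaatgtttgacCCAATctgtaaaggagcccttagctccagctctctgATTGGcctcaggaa
Dhcr7: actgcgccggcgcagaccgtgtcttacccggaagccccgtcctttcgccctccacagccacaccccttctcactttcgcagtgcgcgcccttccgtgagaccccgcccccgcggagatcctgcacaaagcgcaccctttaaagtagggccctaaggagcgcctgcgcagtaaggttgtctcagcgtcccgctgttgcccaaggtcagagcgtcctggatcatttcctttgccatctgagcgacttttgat

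A CCAAT box on either strand was found in 7 of the 7 lower genes with a promoter entry, in 15 of the 17 tested genes of the pathway with one (88.2%), in 36.6% of the 10274 tested genes with one and in 34.5% of all 27025 promoters of the same length. The motif was thus present in lower and uncalled genes of the pathway alike. The sterol regulatory element TCACNCCAC was found on either strand in 0 of the 7 lower genes and in 1 of the 17, the gene Hmgcs1, against 1.04% of all promoters. A match describes the letters of this window only.

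Among the enzymes of the mevalonate steps, Mvd, which makes isopentenyl diphosphate, had 0.96, 0.73, -0.54 and -0.63 in Purkinje clones, against 3.02, 4.02, 2.92 and 3.05 in CA1 clones (difference -3.12, adjusted p = 0.000395). The gap between the groups was wider than the range within either. The mevalonate kinase Mvk differed by -1.38 with overlapping groups, while its second probe gave -0.18, and the phosphomevalonate kinase Pmvk differed by -0.98. Fdps, which makes farnesyl diphosphate, had 2.94, 3.16, 1.97 and 1.84 in Purkinje clones, against 4.21, 4.56, 3.41 and 3.48 in CA1 clones, a difference of -1.44. The groups of Fdps did not overlap.

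Of the sterol enzymes after squalene, the epoxidase Sqle had 4.58, 4.42, 4.50 and 3.93 in Purkinje clones, against 5.90, 6.51, 5.35 and 5.16 in CA1 clones (difference -1.37). The cyclase Lss differed by -1.25. Tm7sf2, a sterol reductase, had 1.55, 0.68, 0.78 and 0.72 in Purkinje clones, against 3.43, 3.92, 2.93 and 2.78 in CA1 clones (difference -2.33, adjusted p = 0.00251). All Purkinje clones lay below all CA1 clones for these 3 enzymes. Sc5d, a sterol desaturase, had 2.06, 0.36, 0.54 and 1.40 in Purkinje clones, against 3.38, 3.30, 2.95 and 2.85 in CA1 clones, a difference of -2.03, while its second probe, well above background on 2 of 4 Purkinje arrays, gave -0.20.

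The sterol sensor Insig1 was lower too (-1.33). The calls of Mvk and Insig1 were lost without any of 6 single arrays, that of Lss without any of 5 and that of Fdps without Purkinje replicate 3 or 4. Hmgcs1 (-0.40), Dhcr7 (0.17) and Acat2 (0.31) did not pass, and the other uncalled genes among the 22 plotted for this pathway lay between -1.31 (Stard4) and -0.24 (Ebp). A second Hmgcs1 probe gave -1.50, and other Stard4 probes gave 0.40 and 0.55, so the probes of these genes disagree. In XX clones the same contrast gave 1 higher and 3 lower genes and a median of -0.56. The test of the difference between the sexes called none of the genes named here.

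**Figure D3:**
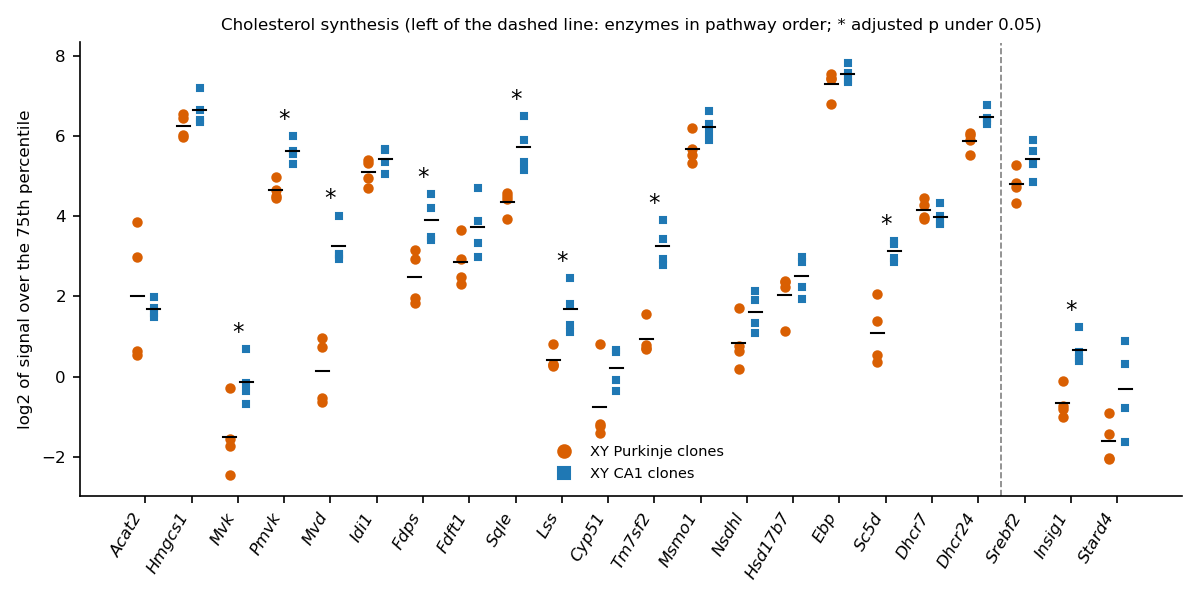
Levels (log2 of signal over the 75th percentile, vertical axis) of 22 genes of cholesterol synthesis, with the enzymes in pathway order and 3 regulators or transport genes right of the dashed line. Orange circles are Purkinje clones, blue squares are CA1 clones, black bars are group means and stars mark an adjusted p under 0.05, which 9 of these genes reached, all with the Purkinje mean below the CA1 mean.

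Glycolysis had 3 genes higher and 3 lower of 22, against 12.3% higher and 8.28% lower among all genes, with a median of -0.52. After scaling to the array median, quantile normalization, cyclic loess or normexp, 0 were higher by limma and 3 or 4 lower, with medians of -0.74 to -0.66. Aldoc, an aldolase that is also known as a marker of Purkinje cell stripes, had -2.51, -2.16, -1.73 and -2.78 in Purkinje clones, against -0.28, 1.16, 0.17 and 0.39 in CA1 clones (difference -2.65, adjusted p = 0.000466). Gpi1, the phosphoglucose isomerase, fell by 1.02 and the main aldolase Aldoa by 0.55, while the monocarboxylate carrier Slc16a1 and the hexokinase Hk2 rose by 0.92 and 0.76. Under the other scalings Hk2 gave as little as 0.11, and neither rise passed in 4 of 5. Another Slc16a1 probe gave 0.08, and the call of Aldoa was lost without any of 6 single arrays. The calls of Slc16a1 and Hk2 were lost without Purkinje replicate 3 or 4, and in Slc16a1 also without CA1 replicate 2, in Hk2 also without CA1 replicate 3 or 4.

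Of 25 glutathione and antioxidant genes, 2 were higher and 4 lower, against 12.3% and 8.28% of all genes. The lower count was 1 without CA1 replicate 4 and 2 without Purkinje replicate 4 or CA1 replicate 1. Gstp1, a glutathione transferase, had 5.15, 5.58, 4.72 and 4.73 in Purkinje clones, against 7.09, 6.93, 6.70 and 6.60 in CA1 clones (difference -1.79, adjusted p = 0.000168), and its second probe gave -2.06. The groups lay more than the range of either apart. Srxn1 (-1.27) and the peroxiredoxin Prdx2 (-0.99) fell, whereas Sod2, the mitochondrial superoxide dismutase, rose by 0.82, which shrank to as little as 0.23 under the other scalings and did not pass in 3 of them. The call of Prdx2 was lost without any of 6 single arrays and that of Srxn1 without any of 3.

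Amino acid transporters had 5 genes higher and 2 lower of 18, against 12.3% and 8.28% of all genes. The higher count was 0 by limma without Purkinje replicate 4, 1 without Purkinje replicate 3, 2 without CA1 replicates 1, 3 or 4, 3 without Purkinje replicate 2 or CA1 replicate 2, and 1 to 4 over the other scalings. Slc1a5, a glutamine carrier, had 0.78, 1.11, 0.53 and -0.05 in Purkinje clones, against 3.24, 2.89, 2.92 and 3.39 in CA1 clones (difference -2.52, adjusted p = 7.18e-05). Slc7a8 and Slc6a14 rose by 1.81 and 2.26 with overlapping groups, since Purkinje replicate 1 lay among the CA1 clones in both. Slc7a8 lost its call without Purkinje replicate 3 or 4 or CA1 replicate 2, and Slc6a14 without any of 7 single arrays. In the lipid droplet list 2 of 15 genes rose, a share near that of all genes. Fabp3, a fatty acid binding protein, led with 8.88, 9.20, 9.45 and 9.62 in Purkinje clones, against 8.06, 8.47, 8.12 and 8.11 in CA1 clones (difference 1.09). Fabp3 is a gene of high signal, and its difference shrank to as little as 0.11 under the other scalings, 2 of which ended the call.

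Genes of the Polycomb complexes, which place methylation on H3K27 and ubiquitin on H2A and keep developmental genes silent, were listed together with the demethylase Kdm6a. Of the 20 genes of this list, 9 were higher, Kdm6a among them, and 0 lower, against 12.3% and 8.28% of all genes. The median of the list was 0.58. Over the scalings the median stayed between 0.44 and 0.66 with 8 to 9 higher and at most 1 lower, and single-array omissions left 6 to 10 higher, the fewest without Purkinje replicate 3. Without both dim arrays the median was 0.60 with 0 called by limma. Suz12, a core subunit of the methylating complex PRC2, had 5.55, 6.32, 7.04 and 7.08 in Purkinje clones, against 4.80, 4.98, 4.45 and 3.51 in CA1 clones (difference 2.06, adjusted p = 0.00156). Its second probe gave 0.70.

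The methyltransferase Ezh2 had 3.12, 3.03, 3.56 and 3.32 in Purkinje clones, against 2.62, 2.62, 1.98 and 1.89 in CA1 clones, a difference of 0.98. Eed, the subunit that reads the mark, had 2.02, 1.68, 1.92 and 2.36 in Purkinje clones, against 1.53, 1.09, 1.07 and 0.67 in CA1 clones, a difference of 0.90. Neither gene's groups overlapped. The accessory subunit Mtf2 (1.48) and the histone chaperones Rbbp4 (1.48) and Rbbp7 (1.05, overlapping) rose as well. Other probes gave 0.48, -0.16 and 0.26 for Mtf2 and 1.25, -0.94 and 0.16 for Rbbp4. In the ubiquitin-placing complex PRC1, the ligase Rnf2 rose by 1.52 and its partner Bmi1 by 1.00. Kdm6a, an X-linked enzyme that removes the mark and is no part of these complexes, rose by 0.85. Uncalled genes of the list ranged from -1.14 for Cbx2 to 0.61 for Cbx7.

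Enzymes of H3K9 methylation, a mark of closed chromatin that limits nuclear transfer in mice, had 4 of 15 higher and 1 lower. Among all genes the shares were 12.3% and 8.28%. For this list cyclic loess gave 2 higher and 3 lower and normexp 3 of each. The higher count was 2 without Purkinje replicates 2, 3 or 4 or CA1 replicate 4. The partners Ehmt1 and Ehmt2, which act as a heterodimer, moved in opposite directions. Ehmt1 had 3.73, 3.92, 5.37 and 5.44 in Purkinje clones, against 3.03, 3.06, 3.31 and 2.89 in CA1 clones (difference 1.54, adjusted p = 0.00884). Ehmt2 had 3.60, 3.76, 3.23 and 3.19 in Purkinje clones, against 4.46, 4.51, 4.55 and 4.66 in CA1 clones (difference -1.10, adjusted p = 0.00392). The groups of each gene were separate, and for Ehmt1 the 2 dim arrays were highest. The heterochromatin protein gene Cbx1 rose by 1.10.

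Of 14 genes of histone deacetylases and their complexes, the targets of trichostatin A among them, 2 were higher and 2 lower. Among all genes the shares were 12.3% and 8.28%. Hdac10, also known as a polyamine deacetylase, had -0.13, 0.16, -0.64 and -2.34 in Purkinje clones, against 1.02, 0.82, 1.76 and 2.54 in CA1 clones (difference -2.27), and its second probe gave -2.17. The corepressor Rcor1 rose by 1.53 on its brightest probe, but a second probe gave -0.90. Of 17 DNA methylation genes, 1 was called, the glycosylase Tdg, which removes oxidised methylcytosine, with 5.67, 5.70, 6.01 and 5.91 in Purkinje clones, against 4.80, 4.62, 5.01 and 5.04 in CA1 clones (difference 0.96). The methyltransferases Dnmt1 (-0.34), Dnmt3a (-1.12) and Dnmt3b (0.20) did not pass.

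Imprinted genes, expressed from 1 parental copy, were mostly not called. Of 28 genes with imprints set by DNA methylation, 1 was higher and 2 lower, against 12.3% and 8.28% of all genes. Mkrn3, a paternally expressed ubiquitin ligase, had -1.29, -0.57, 0.27 and -0.60 in Purkinje clones, against -1.54, -2.29, -3.23 and -3.43 in CA1 clones (difference 2.08). Slc22a18, a maternally expressed transporter, had 0.84, -0.32, 0.20 and -0.34 in Purkinje clones, against 2.01, 2.60, 2.61 and 3.60 in CA1 clones (difference -2.61), and the groups of both genes were separate. Trappc9 fell by 1.01 on its brightest probe, while a second probe gave 0.00. H19 (-1.47), Igf2 (-0.40) and Meg3 (-0.54) did not pass.

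Of 16 genes whose maternal copy is silenced by H3K27 methylation, 4 were higher and 0 lower, against 12.3% and 8.28% of all genes. Their median was 0.67, and this form of imprinting is lost in many mouse clones. After scaling to the array median, cyclic loess or normexp 1 was higher and after quantile normalization 2, with medians of 0.34 to 0.53. The transcription factor gene Runx1 had 1.62, 1.83, 2.42 and 2.86 in Purkinje clones, against -1.17, 0.92, 1.18 and -0.04 in CA1 clones (difference 1.96, adjusted p = 0.0135). The groups were separate, and the call was lost without Purkinje replicate 4 (adjusted p = 0.0517). A second Runx1 probe gave 0.41. The others called, Slc38a1, Slc38a4 and Epas1, rose by 0.86 to 0.92, and each lost its call without at least 2 single arrays. Slc38a4 and Epas1 also lost their calls under 4 of the 5 other scalings, and Slc38a1 under 3. Other probes of Slc38a4 (-0.49) and of Epas1 (-1.44 and -0.31) had the opposite sign, and leaving out single arrays gave 0 to 5 higher genes in this list by limma. It gave 2 without Purkinje replicate 3 or CA1 replicates 3 or 4, 1 without CA1 replicate 1 and 0 without Purkinje replicate 4.

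Genes of the unfolded protein response, which raises chaperones when proteins misfold in the endoplasmic reticulum, had 7 of 16 higher and 1 lower. Among all genes the shares were 12.3% and 8.28%. The median of the list was 0.78, and 0.55 to 0.78 over the scalings. The chaperone Hspa5, also called BiP, had 5.94, 6.50, 6.91 and 6.70 in Purkinje clones, against 4.76, 5.45, 5.14 and 5.42 in CA1 clones (difference 1.32, adjusted p = 0.00267). Manf, a secreted factor of this response, had 4.44, 4.56, 4.45 and 4.18 in Purkinje clones, against 3.11, 3.69, 3.09 and 3.51 in CA1 clones (difference 1.06). The groups were separate for both genes, and Manf had like levels in the dim and the brighter Purkinje arrays. The degradation factor Sel1l rose by 1.75, the co-chaperone Dnajc3 by 1.19, Hsp90b1 by 1.13, the lectin Canx by 0.87 and Creld2 by 0.71. A second Hsp90b1 probe gave -0.06 and a second Sel1l probe -0.29. Creld2 lost its call under 4 of the 5 other scalings and without any of 4 single arrays (adjusted p up to 0.101). Canx lost its call under 2 scalings and without Purkinje replicate 3 or 4, and Sel1l without any of 3 single arrays.

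The 1 lower member was Edem1, which sends misfolded glycoproteins to degradation, with 3.14, 3.40, 3.76 and 4.01 in Purkinje clones, against 4.61, 4.71, 4.32 and 4.30 in CA1 clones (difference -0.91), while its other probes gave -0.02 and 0.10. Leaving out single arrays gave 4 to 7 higher genes, the fewest without Purkinje replicate 3, and without both dim arrays 2 were higher and 1 lower. Of 21 genes of the integrated stress response, the neighbouring pathway of Atf4 and Ddit3, 0 were higher and 2 lower. Among all genes the shares were 12.3% and 8.28%. Both lower genes encode enzymes that load transfer RNAs. The serine enzyme Sars had 4.005, 3.098, 2.953 and 3.108 in Purkinje clones, against 4.397, 4.364, 4.607 and 4.89 in CA1 clones (difference -1.27, adjusted p = 0.00426). The tryptophan enzyme Wars had 2.69, 1.74, 2.23 and 1.95 in Purkinje clones, against 3.07, 3.20, 3.21 and 3.43 in CA1 clones (difference -1.08, adjusted p = 0.0132), while its second probe gave -0.07. Neither gene's groups overlapped, and neither passed without both dim arrays (adjusted p = 0.108 for Sars and 0.133 for Wars). Atf4 differed by 0.00 and Ddit3 by 0.13.

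Cytosolic chaperones of the heat shock response had 8 of 15 higher and 1 lower, against 12.3% and 8.28% of all genes. Their median was 0.70, but these are genes of high signal. The higher count fell to 1 under normexp, where the median was -0.05. It was also 4 without Purkinje replicates 3 or 4 or CA1 replicate 4, and 5 without CA1 replicate 3. Hsp90aa1 had 9.08, 9.04, 9.98 and 10.29 in Purkinje clones, against 8.14, 8.45, 8.07 and 8.15 in CA1 clones, a difference of 1.39. Hspb1, a small heat shock protein, fell by 1.21 (adjusted p = 0.0499), a call lost without any of 7 single arrays. Hsf1, the factor that drives the response, rose by 1.24 on its brightest probe, while its other probes gave -0.56 and -0.39.

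Of 21 targets of p53, the factor that answers DNA damage, 4 were higher and 0 lower, against 12.3% and 8.28% of all genes. Their median was 0.53. The higher count was 2 under all other scalings but the authors' table, as well as without Purkinje replicates 3 or 4 or CA1 replicates 1, 2 or 3. Rrm2b, a ribonucleotide reductase subunit for DNA repair, had -0.10, -0.01, 0.85 and 0.65 in Purkinje clones, against -1.55, -1.47, -2.18 and -1.86 in CA1 clones (difference 2.11, adjusted p = 0.000535). The groups did not overlap. The cell cycle inhibitor Cdkn1a (0.50) and the p53 inhibitor Mdm2 (0.53) did not pass. Pmaip1, Trp53inp1 and Aen rose by 1.35, 1.04 and 0.75, and each lost its call without at least 2 single arrays. A second Trp53inp1 probe, well above background on 1 Purkinje array, gave -0.16.

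Immediate early genes, which answer signals within minutes, had 3 of 18 higher and 0 lower, against 12.3% and 8.28% of all genes. Beside Junb, the phosphatase Dusp1 rose by 1.74 and Fosl2 by 1.54, and the calls of both were lost without at least 3 single arrays. Fos (0.76), Jun (0.65) and Egr1 (1.81) did not pass. Among 20 apoptosis genes, 5 were higher and 1 lower, with 3 higher without Purkinje replicates 3 or 4. Cytochrome c, encoded by Cycs, had 6.05, 5.98, 6.58 and 6.54 in Purkinje clones, against 5.19, 5.30, 5.28 and 5.31 in CA1 clones (difference 1.02), and its other probes gave 1.35 and 1.32. Apaf1, which cytochrome c activates, rose by 1.20. Bmf, a killer protein of the Bcl2 family, fell by 1.54, while other probes gave 0.00 and 0.58.

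Of the trophectoderm genes, 6 of 24 were higher and 1 lower, against 12.3% and 8.28% of all genes. The list's median of 0.36 turned to -0.08 under quantile normalization and -0.10 under normexp. Without Purkinje replicate 4, 3 were higher. Gata3, a factor that specifies trophectoderm, had 5.46, 6.01, 6.26 and 6.55 in Purkinje clones, against 4.67, 4.64, 4.61 and 4.22 in CA1 clones (difference 1.53, adjusted p = 0.00179). Its partner Tfap2c had 5.28, 5.50, 6.05 and 6.50 in Purkinje clones, against 4.75, 4.84, 4.36 and 3.88 in CA1 clones (difference 1.37). The groups of both factors were separate, while Cdx2, the other main factor of this lineage, overlapped at a difference of 0.26. The water channel Aqp3 rose by 1.67 and the keratin Krt18 by 0.66, which turned to -0.17 under quantile normalization and -0.14 under normexp, and the tight junction gene Cldn4 fell by 1.37.

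Of 22 genes of the inner cell mass and epiblast, 5 were higher and 0 lower, against 12.3% and 8.28% of all genes. Their median was 0.13. The median turned to -0.12 under quantile normalization, -0.05 under cyclic loess and -0.14 under normexp, each with 2 higher. Without Purkinje replicates 3 or 4 or CA1 replicate 4, 2 were higher as well, and 3 without CA1 replicate 3. The core factors Pou5f1 (-0.42) and Nanog (0.64) did not pass and overlapped. Zfp42 had 6.51, 6.37, 7.17 and 7.07 in Purkinje clones, against 5.82, 5.68, 5.92 and 5.87 in CA1 clones (difference 0.96). Sall4 (0.93), Tfcp2l1 (0.92) and Sox2 (0.82) rose, of which Sox2 lost its call without any of 6 single arrays, Sall4 without any of 5 and Tfcp2l1 without any of 3. Other Tfcp2l1 probes gave 1.12, 0.10 and, well above background on 2 Purkinje arrays, -0.50. Dppa5a rose by 1.03, but gave -0.11 under quantile normalization and -0.13 under normexp. In the primitive endoderm 2 of 19 genes rose, a share near that of all genes, the endocytic receptor Lrp2 by 1.45 and its adaptor Dab2 by 0.74. Dab2 did not pass under 4 of the 5 other scalings, and its difference shrank to as little as 0.32. The factors Gata6 (0.59) and Sox17 (1.28) did not pass. Other Lrp2 probes gave -0.13, 0.70 and 1.23.

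Nodal and BMP signalling, which patterns the early embryo, had 6 of 18 genes higher and 0 lower, against 12.3% and 8.28% of all genes. The median of the list was 0.52, with 5 or 6 higher over the scalings and 6 or 7 over the single-array omissions. Among the receptors, Bmpr1a had 2.91, 3.39, 3.58 and 3.50 in Purkinje clones, against 2.10, 1.99, 2.34 and 1.69 in CA1 clones (difference 1.31, adjusted p = 0.000246), and a second probe gave 1.70. Acvr2a, an activin receptor, had 0.64, 1.02, 1.30 and 0.78 in Purkinje clones, against -0.19, -0.38, -0.61 and -0.96 in CA1 clones (difference 1.47). Bmpr2 rose by 1.25 on its brightest probe, while other probes gave -0.41 and -0.13. These 3 receptors had no overlap between the groups.

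Among the intracellular members, Smad7, an inhibitor of the receptors, had 0.93, 1.00, 1.26 and 1.30 in Purkinje clones, against -0.49, 0.12, -0.22 and -0.32 in CA1 clones (difference 1.35, adjusted p = 5.81e-05). Its groups were separate, with little spread among the Purkinje clones. Smad2 rose by 0.75 and Id2, a target of BMP, by 1.69 with overlapping groups, though a second Id2 probe gave 0.155, while Id1 (-0.07), Id3 (0.02) and the ligand Nodal (-0.63) did not pass. Without the 2 dim Purkinje arrays 3 members were higher and the median was 0.51. Of 25 genes of FGF and MAP kinase signalling, 3 were higher and 1 lower, against 12.3% and 8.28% of all genes.

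X-linked genes were called higher in Purkinje clones more often than lower. Of 388 tested, 68 were higher (17.5%) and 8 lower (2.06%), against 12.3% and 8.28% of all genes, and the median difference was 0.35. The largest autosomal median was 0.22 on chromosome 18 and the lowest -0.18 on chromosome 7, where 74 of 1035 were higher and 135 lower. Chromosomes 18 (57 of 298) and 3 (109 of 601) had larger shares of higher genes than the X. Over the scalings the X-linked median was 0.21 to 0.43 with 45 to 68 genes higher and 8 to 16 lower, and single-array omissions gave 32 to 91 higher and 4 to 10 lower. The fewest higher were 32 without Purkinje replicate 3, 37 without Purkinje replicate 4, 39 without CA1 replicate 4 and 45 without CA1 replicate 2. Without both dim arrays the median was 0.27 with 5 higher and 3 lower.

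The median level of X-linked genes minus that of autosomal genes was -1.04, -0.38, -0.68 and -0.42 in Purkinje clones, against -0.96, -1.60, -0.75 and -1.15 in CA1 clones, so the groups overlapped. Xist, the RNA that silences the X chromosome and is not normally made from the X of a male, had 1.78, 0.38, 2.96 and 3.46 in Purkinje clones, against 1.99, 2.17, 0.71 and 0.75 in CA1 clones. It was above the 75th percentile on all 8 arrays, and its 0.74 difference missed the threshold (adjusted p = 0.387). Its other probes gave -0.69, -0.14 and 0.41.

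Pola1, the catalytic subunit of DNA polymerase alpha, had 4.01, 4.20, 5.08 and 5.00 in Purkinje clones, against 3.08, 3.23, 3.07 and 2.86 in CA1 clones (difference 1.51, adjusted p = 0.0004). The kinase adaptor Tab3 (1.53) and the corepressor Bcorl1 (2.20) rose too, while a second Bcorl1 probe gave -0.89. The 8 lower genes were led by Tmem255a, a membrane protein, which was on the floor in all 4 Purkinje clones, against -0.67, -0.46, -0.92 and -0.73 in CA1 clones, and so at least 6.66-fold lower in Purkinje clones. Maob, a monoamine oxidase, fell by 1.80 and Phka2, a phosphorylase kinase subunit, by 2.04.

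X-linked families that are often misexpressed in clones were not called: Magea and Xlr genes had 0 of 8, and Rhox genes 0 of 5, at an adjusted p under 0.05 by limma. Rhox5 differed by 0.08 and the Magea and Xlr genes lay between -0.57 and 0.50. Of 7 genes of the 2-cell stage, 1 was higher, Gm5662, whose call was lost without Purkinje replicate 4 (adjusted p = 0.0501) and whose second probe gave -0.09. Zscan4c (0.66) and Zfp352 (0.25) did not pass. Of 16 germline genes 2 were higher and 2 lower, against 12.3% and 8.28% of all genes. Piwil2, which acts in the piRNA pathway, had 2.34, 2.79, 2.67 and 2.83 in Purkinje clones, against 1.14, 1.10, 1.53 and 1.27 in CA1 clones (difference 1.40, adjusted p = 0.000929), and its partner gene Mael fell by 2.58, with a call lost without any of 4 single arrays.

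Markers of the recipient oocyte (0 of 8 called) and of the cumulus cells around it (0 of 2) did not pass. Of 32 cell cycle and replication genes, 2 were higher and 0 lower with the 75th percentile, but 1 higher and 6 lower under quantile normalization or normexp and 1 and 7 under cyclic loess, so this list has no stable direction. Of 21 genes of basement membrane, collagens and integrins, 2 were higher and 3 lower, against 12.3% and 8.28% of all genes. The lower count was 0 without Purkinje replicates 3 or 4.

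Counts among genes for abundant proteins turned with the scaling. Cytosolic ribosomal proteins had 30 of 80 higher and 4 lower with a median of 0.40, but 2 to 5 higher and 13 to 17 lower under quantile normalization, cyclic loess and normexp, with medians of -0.11, 0.01 and -0.11. Without single arrays, 13 to 30 were higher, with 13 and 15 without Purkinje replicates 4 and 3 and 18 without CA1 replicates 3 or 4. Rplp0, a stalk protein of the ribosome, rose by 0.80 but gave -0.06 under quantile normalization and -0.09 under normexp. Rpl28 had 3.73, 3.51, 3.81 and 3.64 in Purkinje clones, against 4.71, 4.74, 4.57 and 4.75 in CA1 clones (difference -1.02, adjusted p = 0.000617), so its groups were separate in the opposite direction. The respiratory chain had 15 of 80 higher and 4 lower, the mitochondrial ribosome 8 of 78 in each direction, and the proteasome 8 of 43 higher and 5 lower. Under cyclic loess these became 7 and 11, 6 and 16, and 2 and 9. The shares over all genes were 12.3% higher and 8.28% lower, and 9.12% and 11.1% under cyclic loess.

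**Figure D4:**
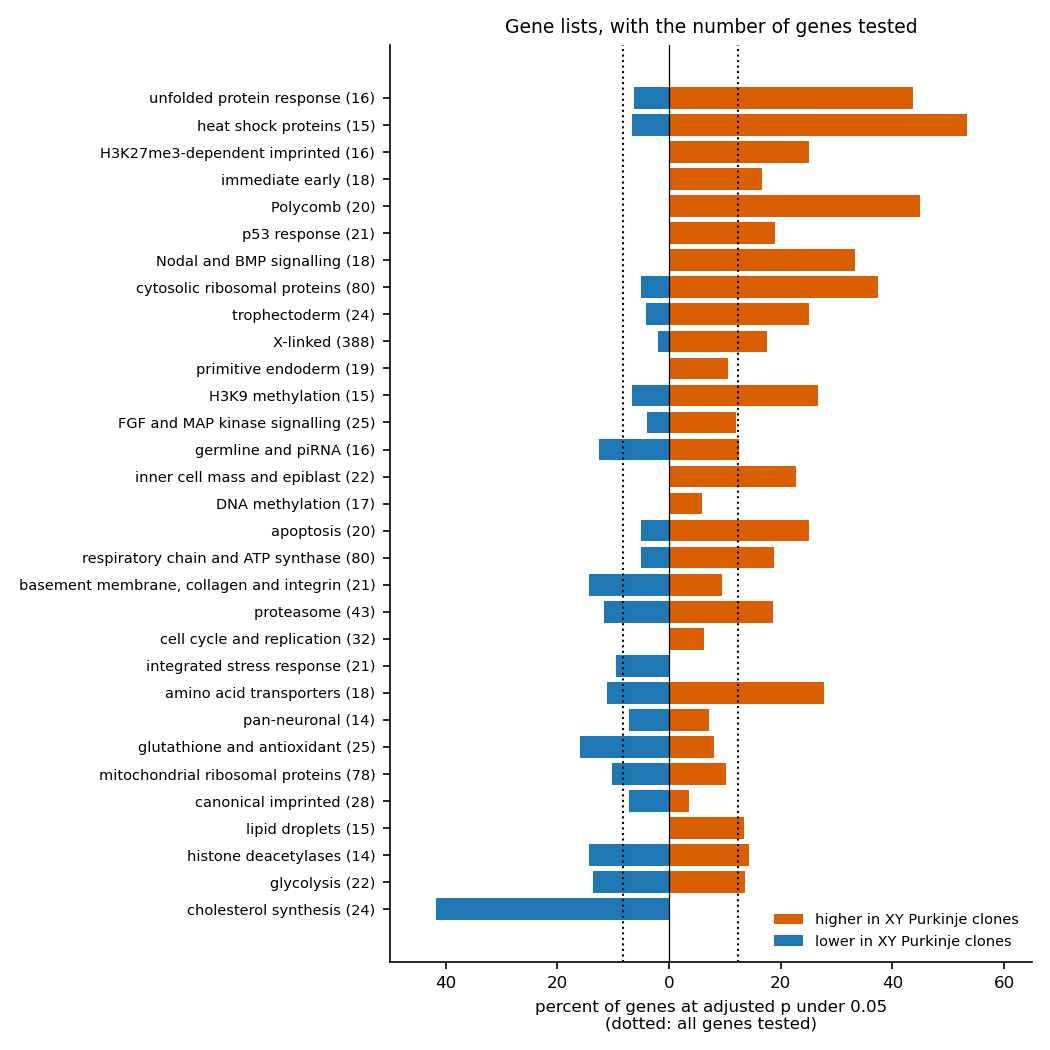
Percent of the tested genes of each list (number in brackets) called higher in XY Purkinje clones (orange, right) or lower (blue, left) at an adjusted p under 0.05, ordered by median difference. The dotted lines are the shares among all genes tested, 12.3% higher and 8.28% lower. Cholesterol synthesis has 10 of 24 genes lower and the Polycomb list, which includes the demethylase Kdm6a, 9 of 20 higher.

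Genes that differed also differed in length. Those higher in Purkinje clones had a median length of 29.2 kb (quartiles 13.5 and 59.1 kb), those lower 14.4 kb (6.31 and 31.0 kb), and all tested genes 21.7 kb. After cyclic loess the medians were 29.7 kb for higher and 14.2 kb for lower genes, a gap as wide as with the 75th percentile. In XX clones the medians of higher and lower genes were 19.8 and 19.9 kb. Across the 12822 genes with a length in RefSeq, Spearman's rho between length and difference was 0.14 in XY clones and 0.04 in XX clones, a description in which all genes share their arrays.

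In XX clones, whose arrays share the filters and the estimate of spread with the XY clones, the Purkinje minus CA1 contrast called 1587 genes (10.8%), 882 higher (6.0%) and 705 lower (4.8%). In both sexes 660 genes were called, 615 of them in the same direction, 395 higher and 220 lower, which are 20.3% of the XY calls and 38.8% of the XX calls. The slides differ between the sexes, but the scans are shared by donor type. Junb (1.63 in XX clones), Padi3 (-2.16), Afap1 (-3.05), Slc1a5 (-1.97), Aldoc (-1.76), Ehmt2 (-1.15), Gstp1 (-0.87) and Mvd (-1.63) were among those called in both. Suz12 (0.45) and Hspa5 (0.62) did not pass in XX clones.

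The difference between the sexes itself passed for 324 genes (2.21%), of which 290 had opposite signs in the 2 sexes and 231 were also called in XY clones. Each group of either sex lay on 1 slide of its own, so sex and slide cannot be told apart in these values. Rps6kb2, a kinase of ribosomal protein S6, had -1.97, -2.02, -1.91 and -1.80 in XY Purkinje clones, against 0.74, 0.64, 0.16 and 0.66 in XY CA1 clones. It differed by -2.48 in XY clones (adjusted p = 8.96e-07) and 0.36 in XX clones, while a second probe gave -0.43 in XY clones. Tfr2 (-0.34 in XX clones), Ano10 (0.07), Rims1 (0.58), Tmem255a (0.24) and Pnliprp2 (1.85) also differed between the sexes. So did Homer3, Manf, Smad7, Bmpr1a and Piwil2, whose XX differences were 0.52, -0.27, 0.35, 0.25 and -0.33. The count of such genes was 1 without the dim Purkinje arrays of both sexes.

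**Figure D5:**
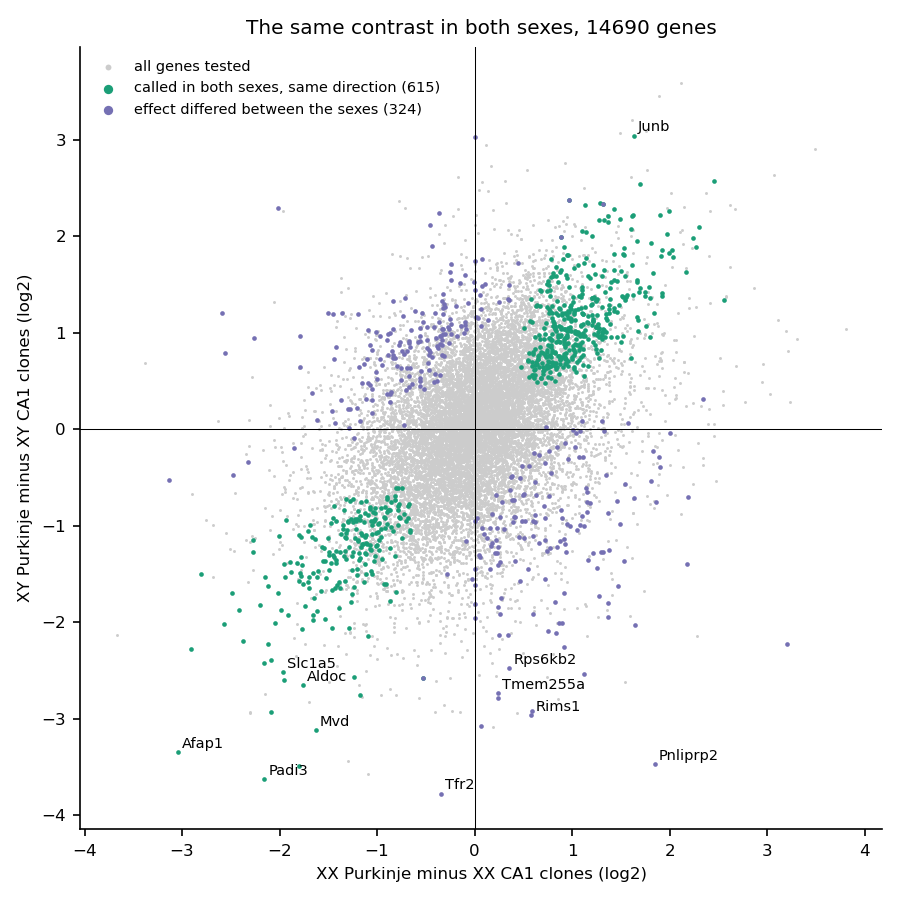
The Purkinje minus CA1 difference in XY clones (log2, vertical axis) against that in XX clones (log2, horizontal axis), 1 point per gene. Green marks the 615 genes called in both sexes in the same direction, purple the 324 genes whose difference itself differed between the sexes, and grey all 14690 genes.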

How the data were processed

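The authors scanned each single-colour Agilent array and deposited the scanner's spot intensity values, made with Agilent Feature Extraction 10.5.1 per the submitters' processing notes and the file headers. The processed signal, an intensity already corrected for background by that software per the file headers, was used for the 20 clone arrays of 5 groups with 4 arrays each. Arrays of in vitro fertilised and cumulus clone embryos, made with another scanner and software version per the file headers, were not used.

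Control probes and outlier spots were left out, spots of a probe were averaged, and each signal was divided by the array's 75th percentile and put on the log2 scale. All arrays shared 1 floor, 0.09286 of the 75th percentile. A probe was kept, as 25133 of 41174 were, if at least 1 group had it well above background on more than 50% of its arrays, and the brightest probe by mean stood for a gene. A gene also had to lie above the floor on at least 3 arrays, a rule set after the data had been seen, which left 14690 genes. Symbols came from RefSeq through the file's accession for 27986 probes, its symbol for 3880 and a synonym for 1621, and 7687 kept the file's name. List names that were no current symbol were matched by RefSeq synonym. Group means were fitted with limma 3.58.1 in R 4.3.3 (lmFit and eBayes, Benjamini-Hochberg adjustment). The fit was also run on simulated data. Those were drawn independently for each gene and array, without slide or scan effects and without a floor, so that run does not bear on these limits.

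The authors' deposited value table holds log2 values centred per probe, and its differences between the group means matched those recomputed from the processed signal over the 75th percentile, with no shared floor, to a median of 0.000549 over 41095 probes (r = 1). It served as an alternative. Its column medians ran from -0.59 to 0.77. The normexp alternative, with an offset of 50, used the median spot signal, since no mean signal was at hand. The number of arrays limits the precision. A gene on the shared floor in all arrays of a group is given as a bound against that floor, from means of the normalized log2 values.

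The members and lists were chosen with earlier results of these data known. Genes named were the 12 largest rises and 12 largest falls among called genes with a plain symbol, no overlap between groups and signal above background in the higher group, up to 4 called members of each list by adjusted p, all called members and up to 6 uncalled of the identity lists, the 5 genes of lowest adjusted p of the XX and sex comparisons that were also called in XY clones, and the sex-linked genes. Further list members were named after their values were seen, and some genes that the rule names are not reported here. Same-numbered replicates were not paired: their deviations from the group means correlated at -0.09, -0.06, 0.02 and -0.15. Motifs and gene lengths came from RefSeq on GRCm38.p6.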

Additional observations from a re-analysis of the deposited data

Results flagged for a closer look

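Among 421 groups of 4 arrays of the named genes, 34 held 1 array that stood apart by Dixon's criterion (a gap to the nearest array that fills most of the group's range), and chance alone gives about 1 in 20 groups. That rate does not hold for groups with values on the floor, which were not left out. Of the genes with large differences, Dcaf12l2 in CA1 replicate 4 (-3.43) and Exosc9 in CA1 replicate 1 (-3.43) lay on the floor, Khk in CA1 replicate 3 (0.21) and Rps6kb2 in CA1 replicate 3 (0.16) lay low, and Mvd in CA1 replicate 2 (4.02) lay high. The sterol reductase gene Tm7sf2 was high in Purkinje replicate 1 (1.55).

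Among neuronal genes, the synaptic organiser Cbln1 (-1.85), Dner (-0.85) and the forebrain factor Emx2 (-2.37) stood apart in Purkinje replicate 4 and Zbtb20 in Purkinje replicate 2 (-2.75). Among the other lists, CA1 replicate 2 stood apart in Fabp3 (8.47), Atp5b (8.23), Slc7a8 (-0.54), Uty (-3.39) and 2900052N01Rik (-3.04). In Uty the other CA1 clones all lay on the floor, so any value above it would be flagged. CA1 replicate 4 stood apart in Gata3 (4.22) and Kdm4c (-0.65), and CA1 replicate 3 in Sycp1 (-3.32) and Bmf (-0.60). The transfer RNA synthetase gene Sars was high in Purkinje replicate 1 (4.005). Among genes that mostly missed the threshold, Purkinje replicate 1 stood apart in Cbx2 (2.10) and Lss (0.803), Purkinje replicate 2 in Jun (0.416) and Meg3 (-1.008), and CA1 replicate 4 in Atf4 (1.117) and Nodal (-1.077). Purkinje replicate 4 and CA1 replicate 1 stood apart in Id1 (-3.157 and -2.859), and Purkinje replicate 4 and CA1 replicate 3 in Zfp352 (-1.855 and -2.848) and Zscan4c (0.199 and -2.447). The integrin gene Itgb5 had 1 such array in each group, Purkinje replicate 1 (5.26) and CA1 replicate 1 (4.89).

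For 25 named genes the Purkinje minus CA1 difference itself differed between XY and XX clones (limma, adjusted p under 0.05), and the values here are the XY difference minus the XX difference on the log2 scale. Sex and slide cannot be told apart in these values. The largest was that of Pnliprp2 (-5.32), followed by Rims1 (-3.54), Tfr2 (-3.44), Ano10 (-3.15), Tmem255a (-2.98) and Rps6kb2 (-2.83). Homer3 (-1.46), the tight junction gene Cldn4 (-1.78), Rpl28 (-1.18), Rpl4 (-1.17), the mitochondrial ribosomal gene Mrpl54 (-1.59), AK082687 (-1.62), 4930591A17Rik (-2.25), Olfr1099 (-1.82), Maob (-2.62), Srxn1 (-2.58) and Edem1 (-1.32) were also lower in XY than in XX clones by this measure. Pola1 (1.66), Tab3 (1.53), Piwil2 (1.72), Manf (1.33), Bmpr1a (1.06), Smad7 (1.01) and the DNA methyltransferases Dnmt1 (1.98) and Dnmt3b (1.49), which missed the threshold in XY clones, were higher.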

How the results depend on the processing

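Every comparison rests on 4 blastocysts a group, each group on its own slide, so no setting separates donor type or sex from slide. The Purkinje arrays had fewer probes well above background, so low genes are bounded by the floor. Of 166 named genes that were called in XY clones, 127 passed under all 5 other scalings, 115 under all 8 single-array omissions and 100 under both. By setting, 161 passed in the authors' value table, 144 after scaling to the array median, 143 after cyclic loess, 142 after quantile normalization and 140 after normexp. The doubled floor kept 160, the floor at 0.01 of the 75th percentile 161, the fit of the compared arrays alone 145 and array weights 166. Without the 2 dim XY Purkinje arrays, an alternative chosen after seeing the data, 40 passed and 126 did not, none with a changed sign. The cause of that loss was not tested, and no other pair of arrays was left out for comparison. The remaining arrays had helped to choose these genes, so the kept sign is a description. All 1807 higher and all 1216 lower calls had the same sign in the brighter Purkinje arrays.

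In XY clones, 1750 genes also differed by at least 1 on the log2 scale, array weights called 5079, omission of the dim Purkinje arrays of both sexes 449, omission of the 2 dim XY arrays 472, and single-array omissions 1716 to 3657. In XX clones the counts were 947 at a difference of at least 1, 3807 after scaling to the array median (228 higher, 3579 lower), 472 from the compared arrays alone, 3528 with array weights, 11 without the dim Purkinje arrays and 709 to 2494 over single-array omissions. For the difference between the sexes they were 978 after scaling to the array median (899 higher, 79 lower), 857 with array weights, 1 without the dim Purkinje arrays and 169 to 522 over single-array omissions. Dppa5a changed sign to -0.11 under quantile normalization and -0.13 under normexp, Rplp0 to -0.061 and -0.092, and Krt18 to -0.165 and -0.140. The cause of these changes was not tested.

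With the replicate number as a block, 2853 genes were called in XY clones and 208 for the difference between the sexes, and 158 of the 166 named genes kept their call, though the numbers do not pair the samples.

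The arrays' brightness differed by -0.33 on the log2 scale in the median raw spot signal (exact permutation test, p = 0.0571), against -1.36 in the 75th percentile of the processed signal. Leaving out single arrays gave -1.57 to -1.06 (exact permutation test, p = 0.0286 without a Purkinje array and 0.0571 without a CA1 array).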
